A study of Mus musculus with 6 samples.

Results

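The genes described here encode 10 enzymes and chaperones that fold collagen inside the cell and crosslink it outside: the lysyl oxidases Lox, Loxl1, Loxl2, Loxl3 and Loxl4, the lysyl hydroxylases Plod1, Plod2 and Plod3, the prolyl 4-hydroxylase subunit P4ha1 and the collagen chaperone Serpinh1. They were chosen by gene symbol from the 18477 genes of the deposited colon table, and 10 of 10 passed the filter on low counts that left 14579 genes for testing. The study asked what changes in the inflamed colon when mice receive the gut bacterium *B. vulgatus*. All mice were male C57BL/6 animals of 6 to 8 weeks that drank 2% dextran sulfate sodium (DSS), which damages the lining of the large bowel, from day 8 to day 14. The DSS group (n = 3 libraries) received PBS by gavage every day up to day 14, and the DSS+BV group (n = 3 libraries) received *B. vulgatus* of a culture collection strain in PBS on the same days. Libraries of mice without DSS were not analysed here, so neither group stands for an uninjured colon.

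Collagen chains are hydroxylated on proline and lysine in the endoplasmic reticulum, before they wind into a triple helix. Prolyl 4-hydroxylase makes the hydroxyproline that keeps the helix stable at body temperature, and Serpinh1, also known as Hsp47, binds the folded procollagen and accompanies it out of the endoplasmic reticulum. Lysyl hydroxylases make hydroxylysine, which carries sugars and decides which kind of crosslink can form. Outside the cell, the copper-dependent lysyl oxidases oxidise lysine and hydroxylysine, and the resulting aldehydes join neighbouring collagen or elastin molecules, which stiffens the matrix. In the colon wall these genes are mainly used by fibroblasts and other mesenchymal cells, and the genes of several of these enzymes are known targets of hypoxia-inducible factors.

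Promoter sequence was held for 5 of the 10 genes in the RefSeq promoter table (GRCm38.p6), and all 5 of these held the core of the hypoxia response element, spelled ACGTG or GCGTG on either strand, within the 250 bases before the start. The same was true of 38.6% of 32851 promoters searched over the same length. The stretches below, of Plod1 (chr4:147936777-147936951, minus strand), Serpinh1 (chr7:99353240-99353414, minus strand) and P4ha1 (chr10:59323046-59323196, plus strand), are those that lie before the gene with no annotated exon base in them. They are shown because the hypoxia response genes were measured beside these genes. Capitals mark the hypoxia core. A match of 5 letters is a description of the sequence and not a binding site.
Plod1: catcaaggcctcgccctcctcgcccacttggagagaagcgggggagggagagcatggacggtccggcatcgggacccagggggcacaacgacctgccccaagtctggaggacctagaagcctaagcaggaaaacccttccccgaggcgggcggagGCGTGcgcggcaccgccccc
Serpinh1: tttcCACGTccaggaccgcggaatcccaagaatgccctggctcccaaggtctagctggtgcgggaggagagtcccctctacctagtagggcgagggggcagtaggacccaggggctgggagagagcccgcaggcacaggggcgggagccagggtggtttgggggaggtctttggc
P4ha1: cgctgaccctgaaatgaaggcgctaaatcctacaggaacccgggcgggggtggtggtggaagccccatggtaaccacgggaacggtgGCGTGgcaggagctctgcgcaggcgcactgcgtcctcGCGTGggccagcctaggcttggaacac

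Libraries summed to between 15293276 and 17254343 expected counts, and the 10 genes were covered by between 52 counts (Loxl4 in DSS+BV 1) and 4207 counts (Serpinh1 in DSS 3). Levels are in CPM, expected counts brought to a common library size with TMM factors. Across all genes, DSS 1 correlated most with DSS+BV 1 (r = 0.967 over log2 CPM) and DSS 2 with DSS+BV 2 (r = 0.963), so that libraries of different groups were in part more alike than libraries of the same group. The labels give no animal numbers, and p-values measure the spread between these libraries. The defining epithelial and mesenchymal markers of colon were present in every library, and 6 of 9 squamous epithelium markers in the table were at 0 in at least 1 library.

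All 10 genes had lower mean levels in the DSS+BV group, by between 1.27-fold (Loxl3) and 3.70-fold (Lox). The 3 with the largest differences were lysyl oxidases, namely Lox, Loxl1 and Loxl2. A gene was called where its Benjamini-Hochberg adjusted p in edgeR's quasi-likelihood test was below 0.05 and its log2 fold change was above 1 in size. None of the 10 was called, beside 14 of all tested genes called lower (0.096%) and 0 called higher. Leaving out any 1 library brought the calls over all genes to between 0 and 7. At an unadjusted p under 0.05, 7 of the 10 were lower and 0 higher, beside 9.29% of all tested genes lower and 3.59% higher. With DESeq2, 1 of the 10 was called lower (Lox) and 0 higher, beside 1.78% and 0.291% of all genes, and 2 (Lox and Loxl2) passed on the adjusted p alone, beside 2.18%. In 7 of the 10 every DSS+BV library was below every DSS library, which held for 11.3% of all tested genes, and in 0 of the 10 was every one above, beside 6.37%. The log2 fold change was below 0 in 10 of 10, against 51.5% of all genes, and its median was -0.67 against -0.01 over all genes. In a sample of whole colon, fewer cells that make an enzyme and less RNA per cell cannot be told apart.

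**Figure D1:**
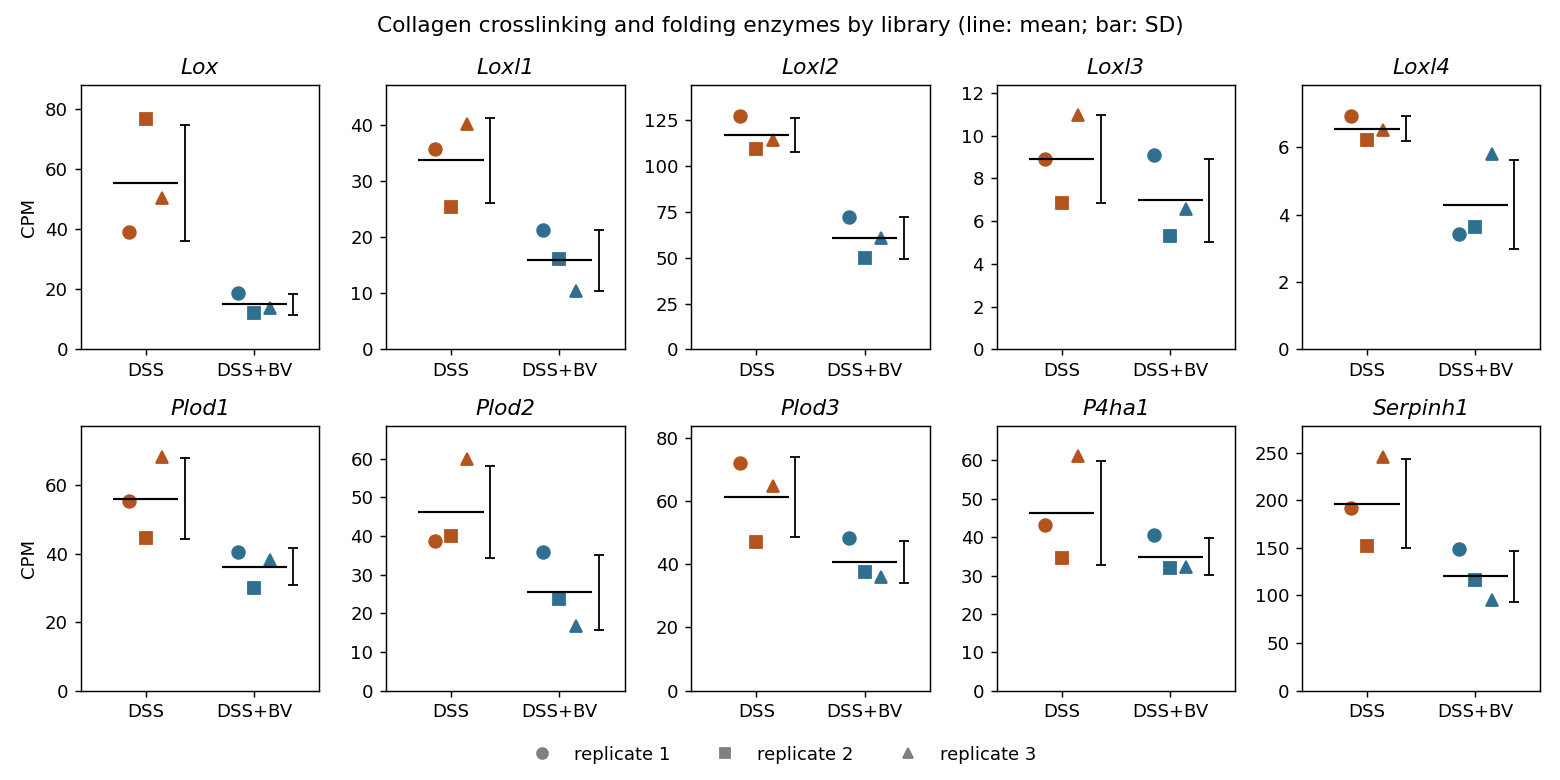
CPM of each of the 10 genes (vertical axes, from 0, with a scale of their own) in the 3 DSS libraries (brown) and the 3 DSS+BV libraries (blue), with symbols for replicates 1 to 3, a line at the mean and a bar of 1 SD. Lox, Loxl1 and Loxl2 have all DSS+BV libraries below all DSS libraries, with the narrowest gap for Loxl1, whereas the groups overlap for Loxl3, Plod3 and P4ha1.

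Lox encodes the founding member of the lysyl oxidase family, an enzyme that crosslinks both collagen and elastin (Entrez gene 16948, chromosome 18). Its level was 39.1, 76.9 and 50.4 CPM across DSS libraries 1, 2 and 3, against 18.9, 12.1 and 13.9 CPM across DSS+BV libraries 1, 2 and 3. The groups did not overlap, and DSS 2 stood highest by a wide margin. The mean was 55.4 ± 19.4 CPM with DSS and 14.97 ± 3.53 CPM with DSS+BV (SD, n = 3 each). The log2 fold change was -1.89 (SE 0.300, 95% interval -2.61 to -1.17). In edgeR's quasi-likelihood test its adjusted p was 0.119, at rank 60 of all tested genes by p-value, and 1.31% of tested genes had a lower log2 fold change. DESeq2 gave an adjusted p of 6.62e-06 for the same gene, so the call depends on the test.

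Loxl1, which is needed for elastic fibre upkeep, lies at chr9:58287723-58313212. It measured 35.6, 25.4 and 40.1 CPM across DSS libraries 1, 2 and 3, against 21.2, 16.0 and 10.4 CPM across DSS+BV libraries 1, 2 and 3. The groups did not overlap, with DSS 2 and DSS+BV 1 nearest to each other, and the log2 fold change of -1.09 (SE 0.303) had an adjusted p of 0.301 in edgeR's quasi-likelihood test and 0.059 in DESeq2. Loxl2, which crosslinks basement membrane collagen IV as well as fibrillar collagen, lies at chr14:69608692-69695834. It measured 127, 109 and 114 CPM across DSS libraries 1, 2 and 3, against 72.2, 49.5 and 60.8 CPM across DSS+BV libraries 1, 2 and 3. The groups were far from overlapping, and the log2 fold change of -0.94 had the smallest SE of the 10, at 0.167. Its adjusted p was 0.163 in edgeR's quasi-likelihood test and 0.00107 in DESeq2, where the fold change missed the threshold on size. The expected counts of Loxl2 were fractional in every library but DSS 1, as happens where RSEM divides reads between a gene and another gene.

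Loxl3 (chr6:83034205-83052566) and Loxl4 (chr19:42592279-42612806) encode the least abundant members of the family in these libraries. Loxl3 measured 8.92, 6.83 and 10.9 CPM across DSS libraries 1, 2 and 3, against 9.10, 5.28 and 6.57 CPM across DSS+BV libraries 1, 2 and 3. The groups overlapped, with DSS+BV 1 second only to DSS 3, and the log2 fold change was -0.35 (95% interval -1.05 to 0.35). Loxl4 measured 6.94, 6.21 and 6.52 CPM across DSS libraries 1, 2 and 3, against 3.43, 3.63 and 5.81 CPM across DSS+BV libraries 1, 2 and 3. Here the DSS libraries were close together and DSS+BV 3 came near to them, and the interval of the log2 fold change (-0.61, from -1.27 to 0.05) reached 0. Loxl3 shares 535 exon bases (11.62% of its exon length) with Htra2 on the opposite strand, and the sources used here do not say whether counting used the strand, so reads of the pair cannot be told apart there.

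Per unit of length, the order of the family can be compared between genes only roughly. The length used is the union of all annotated exons, and which transcripts the colon used was not measured. On the scale of CPM per kb of annotated exon, the 5 lysyl oxidases together reached 46.1, 46.9 and 47.7 across DSS libraries 1, 2 and 3, against 26.6, 18.6 and 20.1 across DSS+BV libraries 1, 2 and 3. The DSS libraries were nearly equal in this sum although Lox itself varied between 8.18 and 16.1 CPM per kb in them. Loxl2 supplied the largest share of the family total in both groups, at 46.1% ± 4.33 with DSS and 51.9% ± 3.55 with DSS+BV (SD, n = 3). Lox supplied 17.7%, 34.3% and 22.1% across DSS libraries 1, 2 and 3, against 14.9%, 13.6% and 14.5% across DSS+BV libraries 1, 2 and 3, so that its share was lower in every DSS+BV library. The share of Loxl3 was higher in every DSS+BV library, at 6.91% ± 0.652 against 4.12% ± 0.911. These shares were not tested, and the ratio of Lox to Loxl1, which was, gave a log2 difference of -0.74 between groups with an exact two-sided permutation p of 0.3 (n = 3 each). Without DSS 2 that difference was -0.28.

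**Figure D2:**
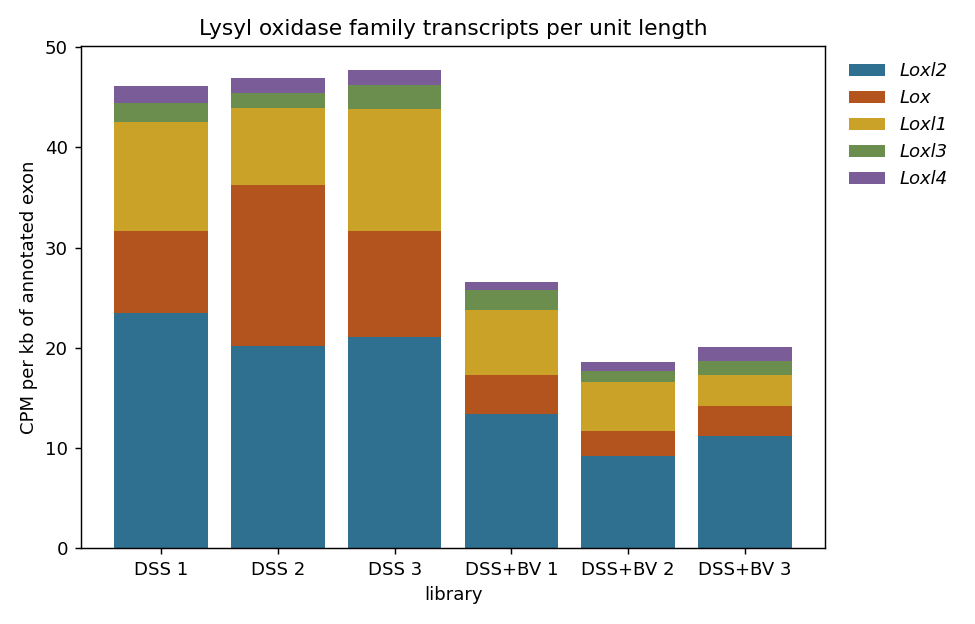
Stacked bars of CPM per kb of annotated exon (vertical axis) for the 5 lysyl oxidase genes in each of the 6 libraries (horizontal axis). The DSS bars end between 46.1 and 47.7 and the DSS+BV bars between 18.6 and 26.6, and the Lox segment is tallest in DSS 2.

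The log2 fold changes of the lysyl hydroxylases lay between -0.86 and -0.60, inside the range of the lysyl oxidases. Plod1 hydroxylates lysines in the triple helix (chr4:147909753-147936776). It measured 55.3, 44.7 and 68.3 CPM across DSS libraries 1, 2 and 3, against 40.6, 30.1 and 38.0 CPM across DSS+BV libraries 1, 2 and 3. The groups did not overlap, although DSS 2 and DSS+BV 1 were close, and the log2 fold change was -0.63 (SE 0.202, adjusted p = 0.326 in edgeR's quasi-likelihood test).

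Plod2 hydroxylates the telopeptides, the ends outside the helix, and so favours the stable hydroxylysine-derived crosslinks of fibrotic tissue (chr9:92539636-92608428). It measured 38.7, 39.9 and 59.9 CPM across DSS libraries 1, 2 and 3, against 35.8, 23.8 and 16.7 CPM across DSS+BV libraries 1, 2 and 3. The gap between the groups was narrow, from 35.8 to 38.7 CPM, and the libraries of each group were spread widely, which left the log2 fold change at -0.86 with an SE of 0.316 (adjusted p = 0.358 in edgeR's quasi-likelihood test). The log2 ratio of Plod2 to Plod1 was lower by 0.28 in the DSS+BV group, with an exact two-sided permutation p of 0.6 (n = 3 each). DSS+BV 3 carried this difference, and without it the log2 difference was 0.031.

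Plod3 adds both the hydroxyl group and sugars to collagen lysines and is needed for collagen IV secretion (chr5:136987019-136996646). It measured 71.9, 47.1 and 64.8 CPM across DSS libraries 1, 2 and 3, against 48.2, 37.4 and 36.02 CPM across DSS+BV libraries 1, 2 and 3. DSS+BV 1 was above DSS 2, and the log2 fold change was -0.60 (SE 0.204, adjusted p = 0.344 in edgeR's quasi-likelihood test). Plod3 shares 529 exon bases (11.71%) with Znhit1 on the opposite strand. Per kb of exon, Plod3 made up 44.6% ± 5.55 of the lysyl hydroxylase total with DSS and 47.3% ± 1.35 with DSS+BV (SD, n = 3), and that total was 30.4 ± 5.61 against 19.0 ± 3.70 CPM per kb.

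P4ha1 encodes the catalytic alpha subunit of prolyl 4-hydroxylase (chr10:59323197-59373304). It measured 43.1, 34.6 and 61.1 CPM across DSS libraries 1, 2 and 3, against 40.6, 32.0 and 32.2 CPM across DSS+BV libraries 1, 2 and 3. The groups overlapped, and outside DSS 3 and DSS 1 the libraries lay between 32.0 and 40.6 CPM. The log2 fold change was -0.41 (95% interval -0.97 to 0.15). Serpinh1, the collagen chaperone (chr7:99345375-99353239), measured 192, 152 and 245 CPM across DSS libraries 1, 2 and 3, against 149, 116 and 95.5 CPM across DSS+BV libraries 1, 2 and 3. The groups nearly touched, since DSS 2 was just above DSS+BV 1, and the log2 fold change was -0.71 (SE 0.234, adjusted p = 0.335 in edgeR's quasi-likelihood test).

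On the scale of CPM per kb, Serpinh1 was the most abundant of the 10 in both groups, at 80.3 ± 19.1 with DSS and 49.2 ± 10.99 with DSS+BV (SD, n = 3). Loxl2 followed at 21.6 ± 1.72 in the DSS group. Below it, Plod3, Lox, P4ha1, Loxl1, Plod2 and Plod1 ran from 13.6 to 8.29 CPM per kb and each overlapped the next in its libraries. Loxl3 (1.93) and Loxl4 (1.56) came last, apart from the rest and overlapping each other. Lox took rank 4 with DSS and rank 8 with DSS+BV, where it was at 3.13 ± 0.740 CPM per kb.

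**Figure D3:**
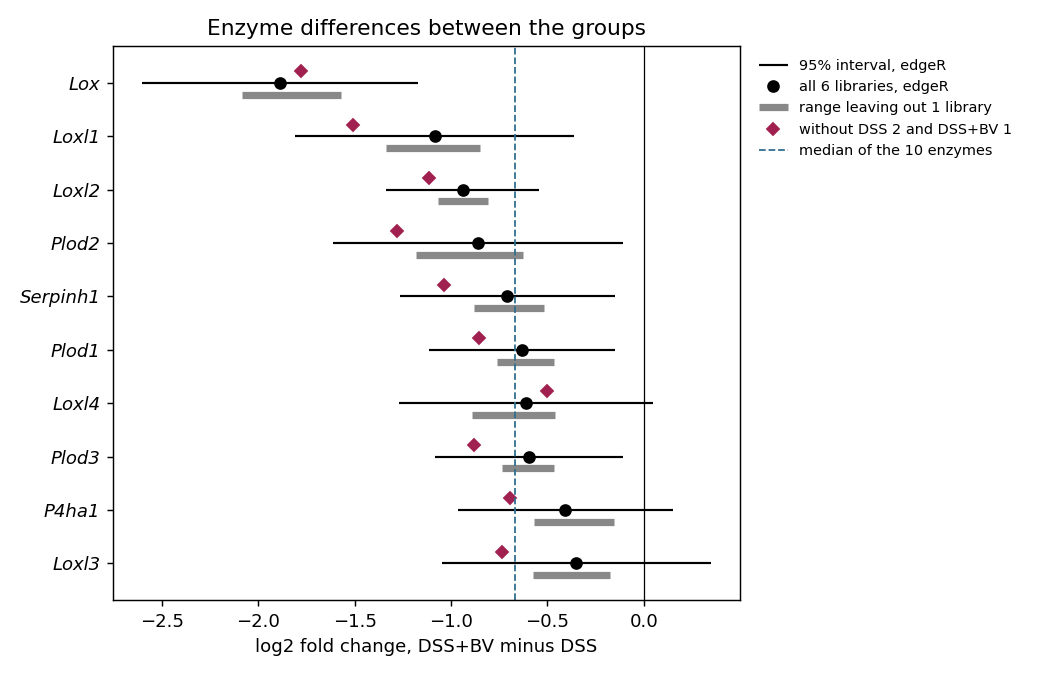
Log2 fold change of each gene, DSS+BV minus DSS (horizontal axis), from edgeR with its 95% interval (black), the range when each library in turn is left out (grey) and the value without DSS 2 and DSS+BV 1 (diamonds); the dashed line is the median of the 10. All points and all ranges lie below 0, and the intervals of Loxl3, Loxl4 and P4ha1 cross it.

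Most of the genes shared an order of libraries. DSS 3 was the highest library for 6 of the 10, DSS 2 was the lowest DSS library for 8, and DSS+BV 1 was the highest DSS+BV library for 9. Lox went the other way in the DSS group, with its highest level in DSS 2, where 9 of 10 genes were below their group mean on the log2 scale. Over the 6 libraries all 45 pairs of genes had a positive Pearson r of log2 CPM, from 0.321 (Plod2 with Loxl4) to 0.978 (Loxl1 with Serpinh1), with a median of 0.811. These correlations describe 6 libraries that include the difference between groups. DSS 2 and DSS+BV 1 therefore brought the groups together for most of the genes. Without both, which were picked because earlier results of these data placed them nearer to the other group, a choice that widens any difference, the median log2 fold change was -0.96. In that fit 2 of the 10 were called lower by edgeR's quasi-likelihood test, Lox (adjusted p = 0.0309) and Loxl2 (adjusted p = 0.0403), and 663 genes were called in all. With any 1 library left out, edgeR called 0 of the 10.

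The genes whose profile was most like the mean of the 10 over the 6 libraries were Pdpn, C1qtnf1 and Fndc3b (each r = 0.998), then Rtn4rl2 and Neb (each 0.996) and Arhgap23 (0.995). The values of r in this paragraph are the highest out of all tested genes, over libraries that include the difference between groups. A shared origin was not tested, and Rtn4rl2 and Neb reached only 5.82 and 2.44 CPM. Pdpn encodes podoplanin, a surface protein of fibroblasts and lymphatic endothelium, and it measured 36.3, 29.4 and 44.6 CPM across DSS libraries 1, 2 and 3, against 21.0, 13.2 and 15.1 CPM across DSS+BV libraries 1, 2 and 3. For Lox alone the most similar gene was Sfrp1, a secreted Wnt antagonist (r = 0.994), with 159, 228 and 173 CPM in the DSS libraries and 73.8, 49.9 and 59.8 CPM in the DSS+BV libraries. Both peaked in DSS 2. For Serpinh1 it was Ecscr, an endothelial surface protein (r = 0.998), and for Loxl2 it was Arsi (r = 0.996). For other members it was Tnfrsf22 (Loxl1), Haghl (Loxl4), Gpc1 (Plod1), Cep170 (Plod2), Fam219b (Plod3) and Manea (P4ha1), each with r between 0.994 and 0.997.

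The fibrillar collagen chains, substrates of these enzymes, had a lower median log2 fold change than the 10 enzymes (-0.67). Among 10 tested fibrillar collagen chains, 0 were called by edgeR's quasi-likelihood test, 7 were lower at an unadjusted p under 0.05, 5 were called lower by DESeq2, and the median log2 fold change was -1.04. Col3a1, a major chain of distensible tissue, averaged 1861 ± 334 CPM with DSS and 541 ± 119 CPM with DSS+BV (log2 fold change -1.78). Col5a2 (-1.40), Col1a1 (-1.32) and Col5a3 (-1.29) followed. Of the 10 chains, 9 had a log2 fold change below 0, down to a small one for Col11a2 (-0.05), and Col24a1 was higher (0.38). The summed CPM of Col1a1, Col1a2, Col3a1, Col5a1 and Col5a2 was 3503, 3151 and 2647 across DSS libraries 1, 2 and 3, against 1386, 926 and 1001 across DSS+BV libraries 1, 2 and 3, a log2 difference of -1.50. Col3a1 gave the largest part of that sum, at a mean of 1861 of 3101 CPM with DSS, so ratios to the sum lean on this chain. Basement membrane and other collagens had 1 of 16 tested chains called lower by edgeR and 4 by DESeq2, and their median was -0.78. The edgeR call was Col4a2, which fell by 1.45 on the log2 scale (adjusted p = 0.035 in edgeR's quasi-likelihood test). It was not called once any 1 library was left out. Of the 16, 14 had a log2 fold change below 0, while Col4a5 (0.39) and Col4a6 (0.78) were higher.

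Relative to that collagen sum, 9 of the 10 enzymes were higher in the DSS+BV group, beside 97.1% of all tested genes. Of these enzymes, 7 had no overlap between groups. Because the sum itself was lower, the same ratio was higher with no overlap for 78.5% of all tested genes. Its median log2 difference over all tested genes was 1.504, so the counts of 9 and 7 were near the background. The median of the 10 was 0.82, from 0.38 for Loxl1 to 1.14 for Loxl3 among the 9. P4ha1 had log2 ratios of -6.34, -6.51 and -5.44 across DSS libraries 1, 2 and 3, against -5.09, -4.86 and -4.96 across DSS+BV libraries 1, 2 and 3, a difference of 1.13. Serpinh1 had -4.19, -4.38 and -3.43 in the DSS libraries and -3.22, -3.00 and -3.39 in the DSS+BV libraries, a difference of 0.80 with DSS 3 and DSS+BV 3 side by side. Lox was the exception, with -6.49, -5.36 and -5.71 in the DSS libraries and -6.20, -6.26 and -6.17 in the DSS+BV libraries, which overlapped (difference -0.36, exact two-sided permutation p = 0.4, n = 3 each). DSS 2 carried much of this difference, which was -0.11 without it and -0.67 without DSS 1. With 3 libraries against 3 the exact permutation test cannot give a p under 0.1, and after adjustment over the 22 ratios tested the smallest value was 0.244.

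**Figure D4:**
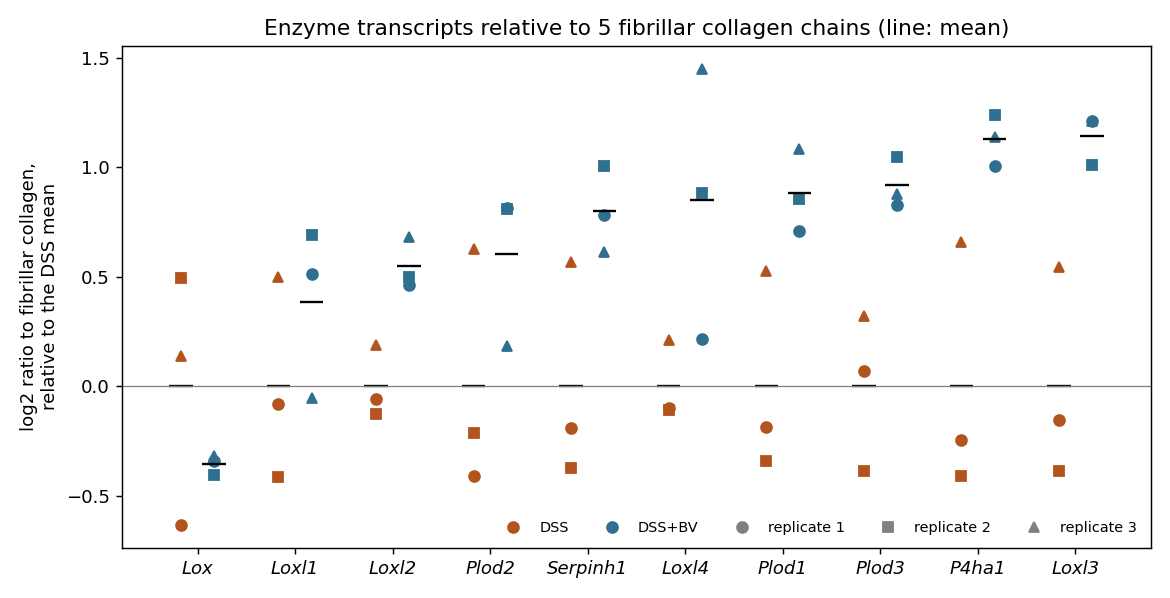
Log2 ratio of each enzyme to the summed CPM of 5 fibrillar collagen chains, relative to the mean of the DSS group (vertical axis), for DSS (brown) and DSS+BV (blue) libraries with symbols for replicates and lines at the means. The DSS+BV mean lies below 0 for Lox (-0.36) and above 0 for the other 9 genes (0.38 to 1.14), while 1 DSS+BV library of Loxl1 is just below 0.

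Taken gene by gene, the 14 fibroblast markers had a median log2 fold change of -0.64, near the -0.67 of the 10 enzymes. Of the 14 markers, 12 had a log2 fold change below 0, and Adamdec1 and Ogn were above 0. Relative to the summed CPM of the 14 fibroblast markers, all 10 enzymes were lower in the DSS+BV group, with a median log2 difference of -0.42. The sum itself was 1704 to 2345 CPM in the DSS libraries and 1378 to 2186 CPM in the DSS+BV libraries. The direction depended on which markers were summed. The most abundant marker, Adamdec1, rose from 234 ± 48.5 to 825 ± 606 CPM by DESeq2 (adjusted p = 0.0282; 0.319 in edgeR's quasi-likelihood test) and reached 1473 CPM in DSS+BV 3, with overlapping groups. Without Adamdec1, an alternative chosen after its values were seen, the marker sum was 1744 ± 283 against 850 ± 222 CPM, the median log2 difference of the enzymes was 0.38, and 8 of the 10 changed direction. That shorter sum was led by C3, which averaged 760 ± 103 CPM with DSS and 196 ± 153 CPM with DSS+BV. With Pdgfra, Pdgfrb and Thy1 alone, which leaves out both, the median was -0.13, and Loxl3 and P4ha1 were above 0. Lox kept a log2 difference below 0 with each of the 3 sums, at -1.60 with all markers, -0.80 without Adamdec1 and -1.31 with the 3 genes. Its exact two-sided permutation p was 0.1 with each sum, the smallest possible (n = 3 each). With all markers, Lox and Loxl4 were the 2 of the 10 whose groups did not overlap. The share over all tested genes was not computed for this ratio. Neither this count nor the direction shared by all 10 can therefore be set against a background.

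Other cell type markers moved with the groups as well. The summed epithelial markers were 12893 to 21696 CPM in the DSS libraries and 22371 to 41678 CPM in the DSS+BV libraries, with 12 of 12 log2 fold changes above 0, and their most abundant gene was Muc2. The summed endothelial markers were 562 to 802 CPM against 367 to 501 CPM, and the neutrophil markers 154 to 231 CPM against 16.4 to 31.1 CPM, with 6 of 11 tested neutrophil genes called lower by edgeR with all 6 libraries. The summed enteric neuron and glia markers were 56.9 to 239 CPM against 41.7 to 49.0 CPM, with 9 of 10 genes lower at an unadjusted p under 0.05, 3 called by DESeq2 and a median log2 fold change of -1.76. Smooth muscle markers (2292 to 2763 against 2012 to 2993 CPM), macrophage markers (827 to 2015 against 572 to 1409 CPM), B and plasma cell markers (570 to 1732 against 254 to 1212 CPM), mesothelium and adipocyte markers (53.0 to 131 against 44.0 to 66.2 CPM) and T cell markers (44.9 to 91.0 against 42.1 to 92.8 CPM) overlapped between groups. As with the 10 enzymes, every tested log2 fold change was below 0 for several marker lists. These were endothelial (13 of 13, median -0.63), macrophage (12 of 12, -0.86) and B and plasma cell markers (10 of 10, -0.89). Neutrophil (11 of 11) and enteric neuron and glia markers (10 of 10) did the same. Smooth muscle (6 of 10), T cell (6 of 9) and mesothelium and adipocyte markers (3 of 5) were mixed. The part of these shifts in the levels of the 10 enzymes was not tested.

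Other enzymes that modify collagen in the endoplasmic reticulum had a median log2 fold change of -0.61 over 16 tested genes, with 0 called by edgeR's quasi-likelihood test, 9 lower at an unadjusted p under 0.05 and 3 called lower by DESeq2. These 3 were P3h1 (-1.17) and P3h3 (-1.22), which belong to the prolyl 3-hydroxylase family, and Fkbp10 (-1.18), a prolyl isomerase that assists Plod2. Tmem38b, an ion channel of the endoplasmic reticulum needed for collagen modification, measured 34.2, 36.9 and 42.1 CPM in the DSS libraries and 23.5, 23.4 and 22.6 CPM in the DSS+BV libraries, a log2 fold change of -0.70 with no overlap. P4hb, the beta subunit that completes prolyl 4-hydroxylase and also serves as a general protein disulfide isomerase, was named after its values were seen. It measured 727, 728 and 616 CPM in the DSS libraries and 707, 786 and 825 CPM in the DSS+BV libraries, which overlapped, with a log2 fold change of 0.16.

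The list of general chaperones, which fold many proteins besides collagen, gave no call. It also held the cytosolic heat shock genes Hspa1a, Hspa1b, Hsph1 and Dnajb1. Of 20 tested genes, 0 passed edgeR's quasi-likelihood test, 0 had an unadjusted p under 0.05 and 0 were called by DESeq2, and the median log2 fold change was 0.12, or 0.082 over the 16 genes without these 4. The smallest p-values belonged to Ero1a (-0.27), Canx (0.22), Pdia3 (0.20) and Dnajb11 (0.15), each with overlapping groups. Genes of procollagen export and propeptide cleavage split in their direction, with a median of -0.01 over 18 tested genes. The 6 of them lower at an unadjusted p under 0.05 included Bmp1 (-0.81), the procollagen C-proteinase that also activates lysyl oxidase, its enhancer Pcolce (-0.82), the N-proteinase Adamts2 (-1.18, the 1 called by DESeq2) and the convertase Furin (-0.42). Bmp1 measured 39.1, 49.8 and 49.4 CPM in the DSS libraries and 23.8, 27.3 and 27.6 CPM in the DSS+BV libraries, with no overlap.

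Elastic fibre genes and other partners of the lysyl oxidases had 12 of 24 tested genes lower and 1 higher at an unadjusted p under 0.05, 0 called by edgeR and 4 by DESeq2, and a median log2 fold change of -0.60. Elastin itself (Eln) measured 189, 97.1 and 168 CPM in the DSS libraries and 80.5, 52.5 and 49.9 CPM in the DSS+BV libraries (log2 fold change -1.31), and Emilin1 (-1.22), Fbln2 (-1.05) and Efemp2 (-0.94), which assist elastic fibre assembly, also had no overlap. Efemp2, or fibulin-4, brings Lox to elastin, and it averaged 28.0 ± 6.25 CPM with DSS and 14.6 ± 1.52 CPM with DSS+BV (SD, n = 3). The other matrix crosslinkers and genes of collagen turnover had 9 of 11 lower at an unadjusted p under 0.05, 0 called by edgeR and 4 by DESeq2, with a median of -0.82. Among them were Tgm1 (-1.67), a transglutaminase at under 5 CPM in every library, the collagenase-related Mmp2 (-0.82), the collagen receptor Mrc2 (-0.79) and the collagen-degrading protease Ctsk (-1.18).

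Hypoxia response genes, whose element was marked in the promoters above, had 4 of 21 tested genes lower at an unadjusted p under 0.05, 0 called by edgeR's quasi-likelihood test and 2 by DESeq2 (Adm, -1.63, and Bnip3, -1.44). Egln3 (-0.87) and Ddit4 (-0.84) were the other two, and the list's median was -0.19. Bnip3, a mitophagy receptor, measured 52.0, 42.5 and 85.8 CPM in the DSS libraries and 29.0, 20.6 and 16.9 CPM in the DSS+BV libraries. Bnip3 was highest in DSS 3, as were 6 of the 10 enzymes, whereas Vegfa (-0.14) and Ndrg1 (0.29) were highest in DSS 2. Of the 21 hypoxia genes, 15 had a log2 fold change below 0, and a link to the enzymes was not tested. Genes of the TGF-beta pathway, a main inducer of collagen and Lox, had 4 of 21 lower at an unadjusted p under 0.05, 0 called by edgeR and 1 by DESeq2 (Tgfbr3, -1.14), with a median of -0.31. Among the others were Bgn (-0.81) and Smad4 (-0.79).

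**Figure D5:**
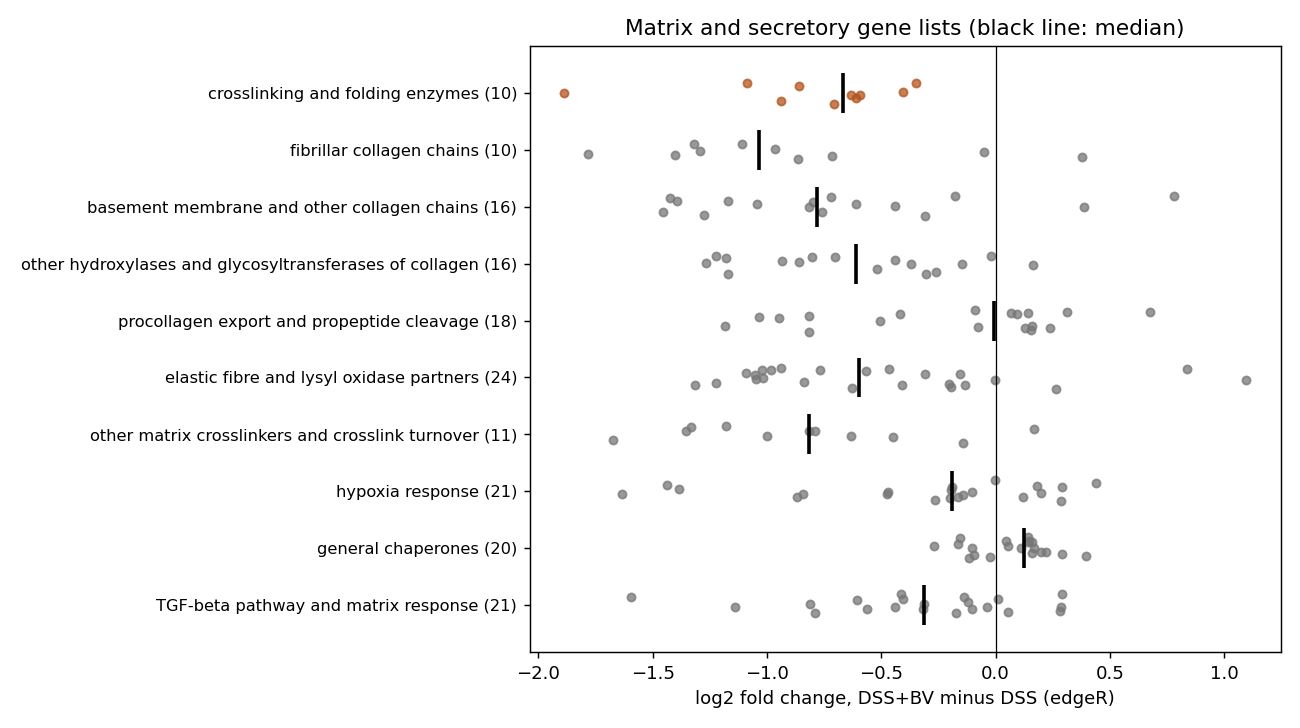
Log2 fold change, DSS+BV minus DSS, of each tested gene (points) in the 10 enzymes (brown) and in 9 lists of collagen assembly and regulation (grey), with black lines at the medians and numbers of tested genes in brackets. The enzymes have a median of -0.67, between the fibrillar collagens at -1.04 and the general chaperones at 0.12.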

How the data were processed

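Colon RNA of 3 DSS and 3 DSS+BV libraries was sequenced by the authors on a DNBSEQ instrument. The deposited values are expected counts per gene from RSEM, not scaled between libraries, and per the labels the processing notes name HISAT2 2.1.0, Bowtie2 2.2.5, RSEM 1.2.8 and GRCm38.p6. Expected counts were rounded to whole numbers, filtered with filterByExpr (minimum count 10, minimum total 15), scaled with TMM factors and tested in R 4.3.3 with edgeR 4.0.16 (quasi-likelihood fit), and the p-values of 14579 genes were adjusted after Benjamini and Hochberg. A call needed an adjusted p below 0.05 and a log2 fold change above 1 in size, and no block or covariate was used. DESeq2 1.42.0, the tool of the study, was the main alternative. Lengths are unions of annotated exons (GENCODE M21), gene positions are of GRCm38.p6, and promoter sequence is from RefSeq.

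The 10 genes and the other lists were chosen with earlier results of these data known. Besides the 10, the text names in each list of collagen assembly up to 4 genes with the smallest p-values, and any called gene, and the genes most correlated with the 10. Some genes that this rule names are not reported here. Ratios were compared with exact permutation tests (scipy 1.17.1). Libraries of a group differed by more than counting noise, as the chi-square over its degrees of freedom was 44.7 or more for each pair. On 3 simulated tables of 14579 genes with 200 changed genes each, edgeR recovered 21.9% of genes changed 2-fold and 83.9% of genes changed 4-fold, and DESeq2 25.7% and 86.5%. A 2-fold change lies at the threshold on size, so part of the 2-fold misses come from that threshold. The simulated spread followed the trend over all genes and not the spread of each gene.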

Additional observations from a re-analysis of the deposited data

How the results depend on the processing

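The log2 fold changes of the 10 genes stayed below 0 in every alternative run, and the median lay between -0.96 and -0.58. Calls depended on the test and on single libraries. Over all genes, edgeR called 14, DESeq2 called 327, leaving out 1 library gave 0 to 7, leaving out DSS replicate 2 and DSS+BV replicate 1 gave 663, and DESeq2 without both, chosen after the data were seen, gave 1690. Of the 10 genes, edgeR called 0, DESeq2 called 1, edgeR without both libraries 2, and DESeq2 without both 5 (Lox, Loxl1, Loxl2, Plod2 and Serpinh1), with medians of -0.96 and -0.94. Leaving out any 1 library gave 0 to 0. Of the genes in the lists of collagen assembly, edgeR called 1, DESeq2 24, edgeR without both 27, DESeq2 without both 43, and leaving out 1 library gave 0 to 0. The other normalizations, filters, fits and the threshold without a fold change left the counts within 1.5 times of their values.

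The labels do not say whether the replicate numbers pair the libraries. Libraries of the same number deviated from their group means with correlations of 0.267, 0.255 and -0.296. With 3 libraries a group these values cannot settle the question. With the replicate number as a block, 0 genes were called in all, 0 of the genes in the lists and 0 of the 10, and the median was -0.67. The ratio of Plod2 to Plod1 had the opposite sign without DSS+BV replicate 3 (log2 difference 0.031), and its leave-out values ran from -0.47 to 0.031. Those of Lox to Loxl1 ran from -1.01 to -0.22. Relative to the fibroblast markers, the sign turned for Loxl3 without DSS replicate 1 (0.015), without DSS+BV replicate 3 (0.13) and with Pdgfra, Pdgfrb and Thy1 alone (0.19), and for P4ha1 without DSS+BV replicate 3 (0.15) and with those 3 genes (0.17), and the leave-out values ran from -0.58 to 0.13 and from -0.52 to 0.15. Without Adamdec1 the median was 0.38, and the sign turned for Loxl2 (0.10), Loxl3 (0.70), Loxl4 (0.40), Plod1 (0.43), Plod2 (0.16), Plod3 (0.47), P4ha1 (0.68) and Serpinh1 (0.35). The causes were not tested. The counts of Loxl3 and Loxl4 ran from 52 to 188 in a library, and their log2 fold changes had SEs of 0.293 and 0.276. Lox, Loxl1 and Plod2, with higher mean counts, had SEs of 0.300, 0.303 and 0.316. The part of counting depth in these SEs was not tested. In the simulated tables of 3 libraries a group, either test missed most 2-fold changes, in part because these lie at the threshold on size.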
